A study of Mus musculus with 4 samples.

Results

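Muscle contracts when calcium leaves the sarcoplasmic reticulum, and 10 genes of that machinery were followed here in skeletal muscle of mice that lacked Txnip, carried the obesity mutation ob, or both. Cacna1s, Cacna2d1, Cacnb1 and Cacng1 encode the main subunits of the muscle voltage-gated calcium channel, and Cacnb4 and Cacna2d4 encode other isoforms of its β and α2δ subunits. Ryr1, Casq1, Casq2 and Sln encode proteins of the sarcoplasmic reticulum. The members were taken as every probe on the array that carries a member's gene name, which gave 18 probes of 41174 in all for 10 of 27597 genes or named transcripts. The set was chosen by the levels on these same arrays, Cacnb4 and Cacna2d4 for their differences between genotypes and the others as the muscle forms beside them, so the differences of Cacnb4 and Cacna2d4 are described and not tested.

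The arrays were 1-colour Agilent mouse arrays, and 4 of them were hybridised, 1 for each genotype: ob/ob TBP-2-/-, ob/ob, TBP-2-/- and WT. TBP-2 is the labels' name for Txnip, the thioredoxin-interacting protein, so TBP-2-/- mice lack Txnip. Mice of the ob/ob genotype carry the ob mutation of the leptin gene and become obese. All mice were 10 weeks old and fed freely. The labels do not name the muscle, the strain, the sex or the number of mice behind an RNA sample, and with 1 array per genotype no difference between 2 genotypes has a replicate check.

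In a skeletal muscle fibre the voltage-gated channel sits in the transverse tubule, where its α1 subunit, Cacna1s, senses the change in voltage. It opens the ryanodine receptor Ryr1 in the facing membrane of the sarcoplasmic reticulum, and the stored calcium flows out. Calsequestrins hold calcium inside the store, with Casq1 as the main form of fast fibres and Casq2 as the form of heart and slow fibres. SERCA pumps carry the calcium back, and sarcolipin (Sln) is a small membrane peptide that binds the pump and lowers the calcium it moves per ATP. In the mouse, Cacnb4 is known as a β subunit of brain channels, and Cacna2d4 as the α2δ subunit of photoreceptor synapses.

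The Txnip labels and the tissue were checked first. Txnip's brighter probe read 166 on the ob/ob TBP-2-/- array and 13142 on the ob/ob array. The same probe read 868 on the TBP-2-/- array and 13209 on the WT array. Lep, the leptin gene, read 570 on the ob/ob TBP-2-/- array, 246 on the ob/ob array, 110 on the TBP-2-/- array and 36.4 on the WT array. An RNA level does not show the ob mutation itself, so the ob/ob labels were not checked directly. All 8 skeletal muscle markers, which include Ckm and Acta1, were well above background on every array. The 75th percentile of the signal ranged from 261 to 309 over the arrays, and 22674 to 24220 probes were well above background. Signals below are the scanner software's processed signals before scaling, whereas differences and folds were taken after each array was set to its own 75th percentile. In this bulk tissue, fewer cells of a type cannot be told apart from less RNA per cell.

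Of the 18 member probes, 12 were well above background on all 4 arrays and 6 on fewer. In TBP-2-/- minus WT, 13 member probes were measured on both arrays and 2 of them, one each of Sln and Cacna2d4, were 2-fold or more lower, against 2.33% of all probes past 2-fold either way. Another 3 probes, all of Cacnb4, were at least 2-fold higher by a bound, and the second Sln probe was at least 2-fold lower. In ob/ob TBP-2-/- minus ob/ob, 2 of 14 measured probes were past 2-fold, both of them Cacnb4 and both higher, against 2.55% of all probes. In ob/ob minus WT, 1 of 13 measured probes was past 2-fold, the lower one of Cacna2d4, against 3.41% of all probes. In ob/ob TBP-2-/- minus TBP-2-/-, 2 of 16 measured probes were past 2-fold, one each of Cacnb4 and Sln and both higher, against 3.13% of all probes. Since these values chose the members, nothing is read from the shares.

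**Figure D1:**
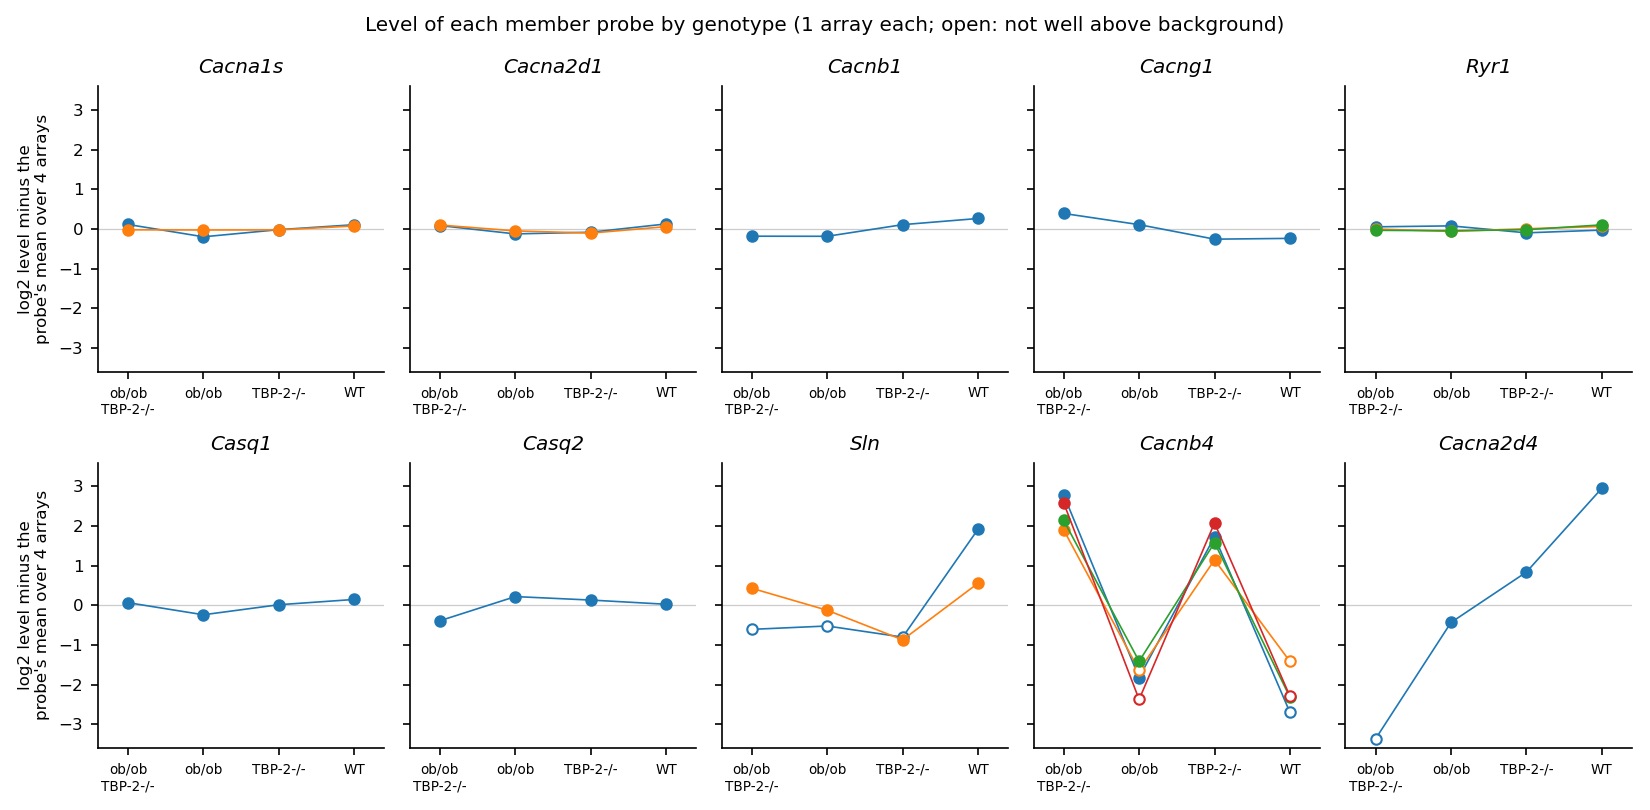
Level of every member probe on the 4 arrays, as log2 of the scaled signal minus that probe's mean over the arrays (y axis, same range in each panel), with the genotypes on the x axis. Each point is 1 array, each line 1 probe, and open points were not well above background; the Cacnb4 probes were high on both arrays without Txnip, Cacna2d4 was lowest on ob/ob TBP-2-/- and highest on WT, and the main channel subunits stayed within 1.57-fold at this scaling.

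The main subunits of the muscle channel differed by less than 2-fold at the 75th percentile scaling. Cacna1s, the voltage-sensing pore, read 164330 on the ob/ob TBP-2-/- array, 156600 on the ob/ob array, 176120 on the TBP-2-/- array and 175390 on the WT array. Its second probe read 418, 493, 490 and 480 in the same order of genotypes. The largest Cacna1s difference over the 4 comparisons was 1.24-fold, and no step between neighbouring levels passed 2 standard errors. This error was taken from Agilent's error model for spots, so it says nothing of the variation from mouse to mouse. Cacna2d1, the α2δ subunit that carries the channel to the membrane, read 4178 on the ob/ob TBP-2-/- array, 4270 on the ob/ob array, 4365 on the TBP-2-/- array and 4609 on the WT array. It differed by 1.19-fold at most over its 2 probes.

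Cacnb1, the β subunit that binds the pore from the inside, read 6241 on the ob/ob TBP-2-/- array, 7365 on the ob/ob array, 8958 on the TBP-2-/- array and 9113 on the WT array. Both ob/ob arrays were below both lean arrays, with a log2 difference of -0.29 in ob/ob TBP-2-/- minus TBP-2-/- and -0.45 in ob/ob minus WT. Cacng1, the γ subunit found in skeletal muscle, went the other way. It read 11779 on the ob/ob TBP-2-/- array, 11453 on the ob/ob array, 8822 on the TBP-2-/- array and 8169 on the WT array. Its log2 differences were 0.65 ± 0.20 in ob/ob TBP-2-/- minus TBP-2-/- and 0.35 ± 0.20 in ob/ob minus WT (error-model SE). With spike-in scaling Cacng1 passed 2-fold in ob/ob minus WT, at 1.01, and stood at 0.51 in ob/ob TBP-2-/- minus TBP-2-/-. Cacnb1 became 0.22 in ob/ob minus WT, with the sign turned, and -0.42 in ob/ob TBP-2-/- minus TBP-2-/-. With scaling to the 75th percentile, no Cacng1 or Cacnb1 step between neighbouring levels passed 2 such errors.

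Ryr1, the calcium release channel, was the steadiest member. One of its bright probes read 86779 on the ob/ob TBP-2-/- array, 98378 on the ob/ob array, 102300 on the TBP-2-/- array and 97296 on the WT array. Its 3 probes differed by 1.11-fold at most. With spike-in scaling its faintest probe reached 0.77 on the log2 scale in ob/ob minus WT, where Casq1 stood at 0.28. Casq1, the calsequestrin of fast fibres, read 28963 on the ob/ob TBP-2-/- array, 27724 on the ob/ob array, 32796 on the TBP-2-/- array and 32850 on the WT array. Its largest difference was 1.31-fold, in ob/ob minus WT.

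Casq2, the calsequestrin of heart and slow fibres, was lowest on the ob/ob TBP-2-/- array. It read 810 there, 1460 on the ob/ob array, 1364 on the TBP-2-/- array and 1158 on the WT array. The other 3 levels lay within 0.19 on the log2 scale of each other, no step between them passing 2 errors, whereas ob/ob TBP-2-/- lay 0.42 below WT, a step that did. The log2 difference was -0.61 ± 0.20 in ob/ob TBP-2-/- minus ob/ob and 0.11 ± 0.20 in TBP-2-/- minus WT. With spike-in scaling the first became -1.17, past 2-fold, and the second 0.35. Casq2 shares chromosome 3 with the deleted Txnip gene, 5.63 Mb away on mm8.

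Sln differed in opposite directions with loss of Txnip in lean and in ob/ob muscle. Its bright probe, at chr9:53651904-53651963 (mm8), read 5821 on the ob/ob TBP-2-/- array, 4688 on the ob/ob array, 2776 on the TBP-2-/- array and 6815 on the WT array. The TBP-2-/- array was the lowest of the 4, and the ob/ob TBP-2-/- and WT arrays differed by less than 1 error. TBP-2-/- minus WT was -1.43 ± 0.20 on the log2 scale, a level 2.69-fold lower, whereas ob/ob TBP-2-/- minus ob/ob was 0.55 ± 0.20. The ob/ob genotype went with a lower level where Txnip was present (-0.68 in ob/ob minus WT) and a higher one where it was absent (1.30 in ob/ob TBP-2-/- minus TBP-2-/-). With scaling to the spike-in RNA the differences of 0.55 and -0.68 became -0.00 and -0.01, so the opposite signs rest on the scaling. The second Sln probe was well above background on the WT array alone, at 33.4, and read 5.42, 6.80 and 5.55 on the ob/ob TBP-2-/-, ob/ob and TBP-2-/- arrays. It was thus at least 3.90-fold lower in TBP-2-/- than in WT and at least 3.41-fold lower in ob/ob than in WT. Of its 8 neighbouring spots, 7 and 5 were measured in these comparisons, and 2 were also 2-fold lower in each, while 2 were 2-fold higher in TBP-2-/- minus WT.

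**Figure D2:**
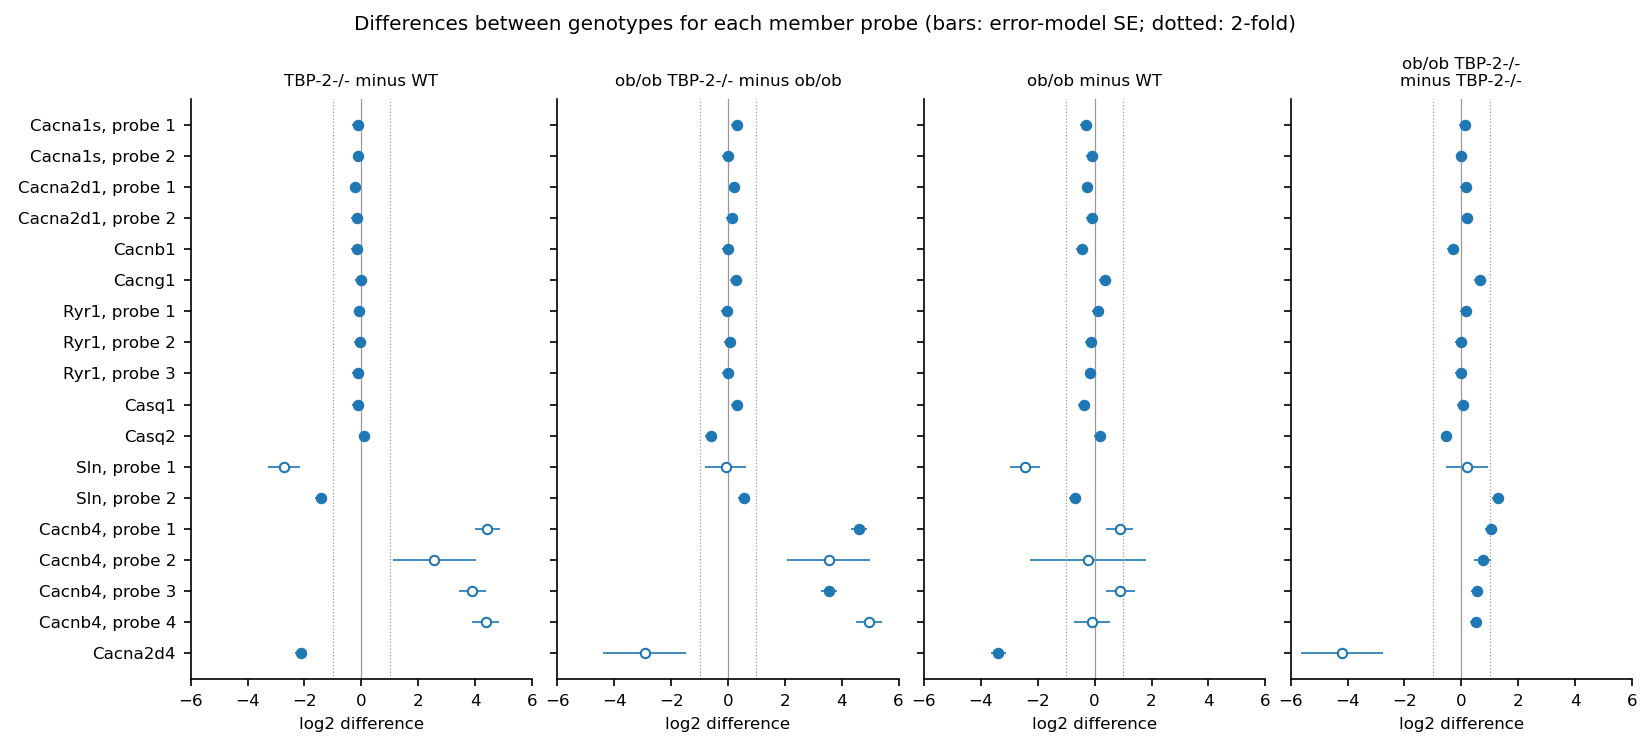
Log2 difference of each member probe (x axis) in the 4 comparisons, with bars for the error-model SE and dotted lines at 2-fold. Open points have at least 1 array not well above background; the probes of Cacna1s, Cacna2d1, Cacnb1, Cacng1, Ryr1, Casq1 and Casq2 lie between the dotted lines at this scaling (with spike-in scaling Cacng1 reached 1.01 in ob/ob minus WT and Casq2 -1.17 in ob/ob TBP-2-/- minus ob/ob), and those of Cacnb4 lie far to the right in both comparisons of loss of Txnip.

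The brain-type β subunit gene Cacnb4 was high on both arrays without Txnip and at or near background on both arrays with it. Its 4 probes lie between 52250412 and 52277686 on chromosome 2 (mm8), on the transcripts that the array annotation names Cacnb4. The brightest probe read 349 on the ob/ob TBP-2-/- array, against 17.0 on the ob/ob array. On the lean background it read 197 on the TBP-2-/- array and 8.38, not well above background, on the WT array. The second probe read 163 on the ob/ob TBP-2-/- array, 16.4 on the ob/ob array, 129 on the TBP-2-/- array and 7.94 on the WT array. The third read 204, 7.79, 168 and 7.46, and the faintest 29.5, 2.999, 20.5 and 3.18, in the same order of genotypes. On all 4 probes both arrays without Txnip read higher than both arrays with it. On the third and the faintest probe, neither array with Txnip was well above background. The 4 probes read the same RNA samples, and Cacnb4 was chosen for its differences between them. The share of all probes ordered this way was not counted, so nothing is read from the order.

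Where both arrays measured it, Cacnb4 was 24.3-fold and 11.7-fold higher in ob/ob TBP-2-/- than in ob/ob. The other 2 probes gave bounds of at least 22.3-fold and 3.22-fold there. Against WT, the TBP-2-/- level was at least 16.0-fold, 13.7-fold, 10.5-fold and 1.66-fold higher. A bound sets the dim array at the lowest signal that was well above background on it, or at the probe's own signal where that was higher. The ob/ob TBP-2-/- array also lay above the TBP-2-/- array on every Cacnb4 probe, by 0.51 to 1.05 on the log2 scale. With normexp background correction, which adds an offset of 50 to every spot, the brightest probe's log2 difference was 2.70 in ob/ob TBP-2-/- minus ob/ob and 1.87 in TBP-2-/- minus WT, against 4.60 and 4.43. Within 500 kb of these probes, 16 other probes were measured on all arrays, and 0 of them were 2-fold different in either comparison of loss of Txnip. Of all probes, 2.33% were so in TBP-2-/- minus WT and 2.55% in ob/ob TBP-2-/- minus ob/ob. With 16 probes, 0 is near those shares, and nothing is read from it.

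Beside Cacnb4, markers of nerve were followed, since its known site is the brain. Of 7 neuron markers, 2 were well above background on all arrays and 3, Nefl, Nefm and Snap25, on none. The summed scaled signal of that list was 4.38 on the ob/ob TBP-2-/- array, 3.15 on the ob/ob array, 3.31 on the TBP-2-/- array and 1.64 on the WT array. All 7 Schwann cell markers were measured, with sums of 43.2, 28.5, 37.1 and 16.4 in the same order. Both sums were higher without Txnip within each background, and most of each was 1 gene. Uchl1 made up most of the neuron sum, with signals of 958, 821, 799 and 325 in the same order. Pmp22 made up most of the Schwann cell sum, with 8766, 7082, 8564 and 3580. Of the Schwann cell markers, 1 of 7 was 2-fold higher in ob/ob TBP-2-/- than in ob/ob and 3 of 7 in TBP-2-/- than in WT. Adipocyte markers were also higher without Txnip, 5 of 5 being 2-fold higher in ob/ob TBP-2-/- than in ob/ob and 3 of 5 in TBP-2-/- than in WT. Their summed scaled signals were 41.7 on the ob/ob TBP-2-/- array, 16.2 on the ob/ob array, 128 on the TBP-2-/- array and 62.3 on the WT array. Most of the lean sums was Cfd, which read 3382 on the ob/ob TBP-2-/- array, 1627 on the ob/ob array, 34430 on the TBP-2-/- array and 15411 on the WT array. The other 4 markers, Adipoq, Lep, Plin1 and Retn, were highest on the ob/ob TBP-2-/- array. Of all probes, 1.69% were 2-fold higher in ob/ob TBP-2-/- than in ob/ob and 1.51% in TBP-2-/- than in WT. The markers of these cell types were chosen with earlier results of these data known, so nothing is read from their counts. The part of any of these cells in the Cacnb4 signal, or in those of Itpr1 and Orai2 below, was not tested.

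RefSeq places 3 starts of Cacnb4 on the minus strand of chromosome 2 (GRCm38.p6), and the array does not say which one the transcripts used. The sequences of the first and the third are shown because they differ most in make-up, with 78.3% and 49.7% G or C. Each runs from 250 bases before the start to 50 after it, 5′ to 3′. The capitals mark E-box letters, CANNTG, searched on both strands, a motif that reads the same on the other strand at its fixed letters.
Cacnb4 start 1, chr2:52676094-52676393: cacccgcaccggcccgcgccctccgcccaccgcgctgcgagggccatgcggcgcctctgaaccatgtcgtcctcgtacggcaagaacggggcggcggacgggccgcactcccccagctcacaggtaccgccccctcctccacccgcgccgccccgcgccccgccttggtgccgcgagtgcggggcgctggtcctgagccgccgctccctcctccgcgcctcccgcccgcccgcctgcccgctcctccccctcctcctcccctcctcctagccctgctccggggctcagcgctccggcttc
Cacnb4 start 3, chr2:52558562-52558861: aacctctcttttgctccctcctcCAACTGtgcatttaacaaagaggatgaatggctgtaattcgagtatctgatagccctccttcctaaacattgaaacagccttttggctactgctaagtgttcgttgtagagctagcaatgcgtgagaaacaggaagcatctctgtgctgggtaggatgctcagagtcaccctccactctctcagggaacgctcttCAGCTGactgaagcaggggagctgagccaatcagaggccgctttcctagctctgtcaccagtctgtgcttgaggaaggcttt
Start 1 held 0 matches of CANNTG and start 3 held 2, CAACTG and CAGCTG, while 72.3% of 32851 mouse promoters of this length held at least 1. The stricter CACGTG, the E-box found in carbohydrate response elements, was in 0 of the Cacnb4 windows and in 7.15% of all promoters. Of the 10 members, 7 had a promoter in the table.

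Cacna2d4, the photoreceptor-type α2δ subunit gene, went in the other direction. Its single probe, at chr6:119266961-119267020 (mm8), read 2.06 on the ob/ob TBP-2-/- array, which is not well above background. It read 18.5 on the ob/ob array, 44.4 on the TBP-2-/- array and 175 on the WT array. WT was the highest. TBP-2-/- minus WT was -2.11 ± 0.22 on the log2 scale, or 4.32-fold lower, and ob/ob minus WT was -3.38, or 10.4-fold lower. The ob/ob TBP-2-/- level was at least 1.71-fold lower than in ob/ob and at least 4.13-fold lower than in TBP-2-/-. With normexp the differences were -1.29 in TBP-2-/- minus WT and -1.71 in ob/ob minus WT.

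Cacna2d4 read lower on both ob/ob arrays than on both lean arrays, and among the genes around it Lrtm2 did so too. Lrtm2, a gene for a leucine-rich repeat transmembrane protein, lies inside the Cacna2d4 gene in RefSeq, and its probe is 14.2 kb from that of Cacna2d4. It read 37.0 on the ob/ob TBP-2-/- array, 54.7 on the ob/ob array, 349 on the TBP-2-/- array and 413 on the WT array. Both ob/ob arrays were low and both lean arrays high, with log2 differences of -3.01 in ob/ob TBP-2-/- minus TBP-2-/- and -3.06 in ob/ob minus WT. With loss of Txnip the Lrtm2 differences were under 2-fold, at -0.32 in ob/ob TBP-2-/- minus ob/ob and -0.37 in TBP-2-/- minus WT. One probe of Wnt5b, a secreted Wnt ligand 132 kb away, was lower with the ob/ob genotype, at -1.20 in ob/ob TBP-2-/- minus TBP-2-/- and -1.34 in ob/ob minus WT. The other Wnt5b probe gave -0.71 and -0.42 there. In all, 9 other probes within 500 kb were measured on all arrays, and 0 of them were 2-fold different in either comparison of loss of Txnip. That is near the shares of all probes, 2.33% in TBP-2-/- minus WT and 2.55% in ob/ob TBP-2-/- minus ob/ob. For the ob/ob genotype, 2 of these 9 probes were 2-fold lower where Txnip was present, and 2 where it was absent. They were Lrtm2 and the first Wnt5b probe each time, and 0 probes were 2-fold higher. Of all probes, 1.64% were 2-fold lower with Txnip present and 1.5% with it absent. The region was picked because Cacna2d4 differed on these arrays, and the larger share there was not tested. The mutated leptin gene is on the same chromosome as Cacna2d4, 90.2 Mb away on mm8.

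**Figure D3:**
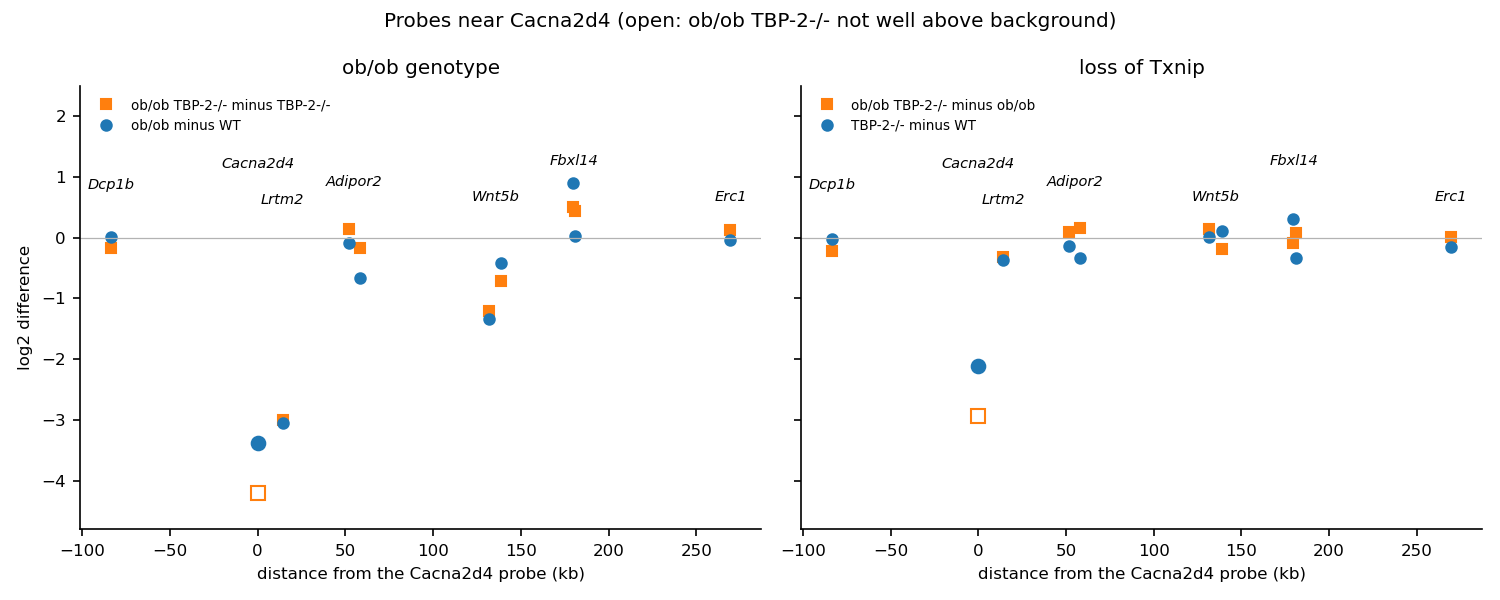
Log2 difference (y axis) of the probes within 500 kb of Cacna2d4 that all arrays measured, against distance in kb from the Cacna2d4 probe (x axis); squares are the comparison with ob/ob TBP-2-/-, circles the comparison with WT, and the larger symbols at 0 are Cacna2d4 itself. Cacna2d4, Lrtm2 and a Wnt5b probe are lower in the ob/ob comparisons on the left. On the right, Cacna2d4, which was chosen for its differences, is more than 2-fold lower in TBP-2-/- minus WT. Its open symbols rest on a signal that was not well above background.

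The genes with patterns most like these were found among 13804 genes by the Euclidean distance between log2 levels centred over the 4 arrays. For Cacnb4 they were Lhx8, a LIM homeobox factor, at a distance of 0.40, Ttc25, an axonemal protein of cilia, at 0.57, and Qprt, an enzyme of NAD synthesis, at 1.19. Lhx8 read 66.2 on the ob/ob TBP-2-/- array, 3.72 on the ob/ob array, 40.2 on the TBP-2-/- array and 2.29 on the WT array. Qprt, the only one of these well above background on every array, read 714, 62.9, 570 and 53.1 in the same order. For Cacna2d4 the nearest were Cd27, a receptor of lymphocytes, at 1.78, Ly6g6e at 1.84 and Nmrk2, a muscle kinase of NAD synthesis, at 1.84. Nmrk2 read 910 on the ob/ob TBP-2-/- array, 8472 on the ob/ob array, 4279 on the TBP-2-/- array and 36970 on the WT array. WT was highest and ob/ob TBP-2-/- lowest, as for Cacna2d4, but the ob/ob and TBP-2-/- arrays stood in the other order.

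The rest of the calcium machinery was read from a list of 73 further genes, of which 70 were on the array with 150 probes, 96 of them measured on every array. In TBP-2-/- minus WT, 6 of 98 measured probes were past 2-fold upward, where 1.51% of all probes were, and 0 downward, where 0.823% were. In ob/ob TBP-2-/- minus ob/ob, 4 of 99 were past it upward and 0 downward, beside 1.69% and 0.862%. In ob/ob minus WT, 4 of 97 were past it upward and 1 downward, beside 1.77% and 1.64%. In ob/ob TBP-2-/- minus TBP-2-/-, 3 of 102 were past it upward and 6 downward, beside 1.63% and 1.5%. The list's median log2 difference was -0.09, 0.12, -0.10 and 0.14 in these comparisons, beside -0.07, 0.02, -0.03 and 0.04 over all probes tested. The list was chosen with earlier results of these data known, so nothing is read from its shares.

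The core partners named next stayed under 2-fold in every comparison, apart from Pln. With spike-in scaling a Jph1 probe passed it, at 1.06 on the log2 scale in ob/ob minus WT. Trdn encodes triadin, which ties calsequestrin to Ryr1, and its brightest probe read 86471 on the ob/ob TBP-2-/- array, 74711 on the ob/ob array, 74371 on the TBP-2-/- array and 80105 on the WT array. Stac3, needed to couple the channel to Ryr1, read 69614, 66913, 70153 and 78541 in the same order. The junctophilins Jph1 and Jph2, which hold the membranes together, differed by 0.62 and -0.51 at most on the log2 scale. Hrc, a calcium-binding protein of the reticulum, and Srl, sarcalumenin, had largest differences of -0.55 and -0.33. Pvalb, the calcium buffer of fast fibres, read 160630 on the ob/ob TBP-2-/- array, 117760 on the ob/ob array, 127080 on the TBP-2-/- array and 134600 on the WT array. The pump of fast fibres, Atp2a1, and the store-refilling pair Stim1 and Orai1 also stayed under 2-fold, with Stim1 at -0.67 in ob/ob minus WT. Pln, phospholamban, which restrains the slow pump, read 11.7 on the ob/ob TBP-2-/- array, 26.6 on the ob/ob array, 13.6 on the TBP-2-/- array and 9.82 on the WT array, and was well above background on the ob/ob and TBP-2-/- arrays only. The bounds were at least 1.93-fold lower in ob/ob TBP-2-/- than in ob/ob, and at least 2.14-fold higher for ob/ob against WT.

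Itpr1, the inositol trisphosphate receptor, which is a second release channel of the reticulum, was higher without Txnip on both backgrounds with both of its probes. One read 4682 on the ob/ob TBP-2-/- array against 2314 on the ob/ob array. On the lean background it read 4470 on the TBP-2-/- array against 1796 on the WT array. The other read 2234 and 987 on the ob/ob TBP-2-/- and ob/ob arrays, and 2365 and 759 on the TBP-2-/- and WT arrays. Both arrays without Txnip read higher than both others, an order whose share over all probes was not counted. The larger differences were 2.67-fold in ob/ob TBP-2-/- minus ob/ob and 2.85-fold in TBP-2-/- minus WT. Orai2, a store-operated channel subunit, read 57.3 on the ob/ob TBP-2-/- array, 24.1 on the ob/ob array, 40.6 on the TBP-2-/- array and 15.9 on the WT array. Its folds were 2.81 in ob/ob TBP-2-/- over ob/ob and 2.33 in TBP-2-/- over WT. The 2 Itpr1 probes and the Orai2 probe were the 3 of 96 list probes 2-fold higher in both comparisons, which 0.317% of all measured probes were. With spike-in scaling, their differences in ob/ob TBP-2-/- minus ob/ob were 0.70, 0.86 and 0.93 on the log2 scale, under 2-fold. Because the list was chosen with earlier results of these data known, nothing is read from its share.

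One probe of Atp2b1, a calcium pump of the plasma membrane, was also higher without Txnip, and it was singled out after its values were seen. It read 14.3 on the ob/ob TBP-2-/- array, 5.85 on the ob/ob array, 33.1 on the TBP-2-/- array and 5.02 on the WT array, neither array with Txnip being well above background. It was at least 1.56-fold higher in ob/ob TBP-2-/- than in ob/ob and at least 2.68-fold higher in TBP-2-/- than in WT. The 3 Atp2b1 probes well above background on every array differed by -0.60 to -0.05 in ob/ob TBP-2-/- minus ob/ob and by -0.19 to -0.07 in TBP-2-/- minus WT, opposite in sign to that probe.

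**Figure D4:**
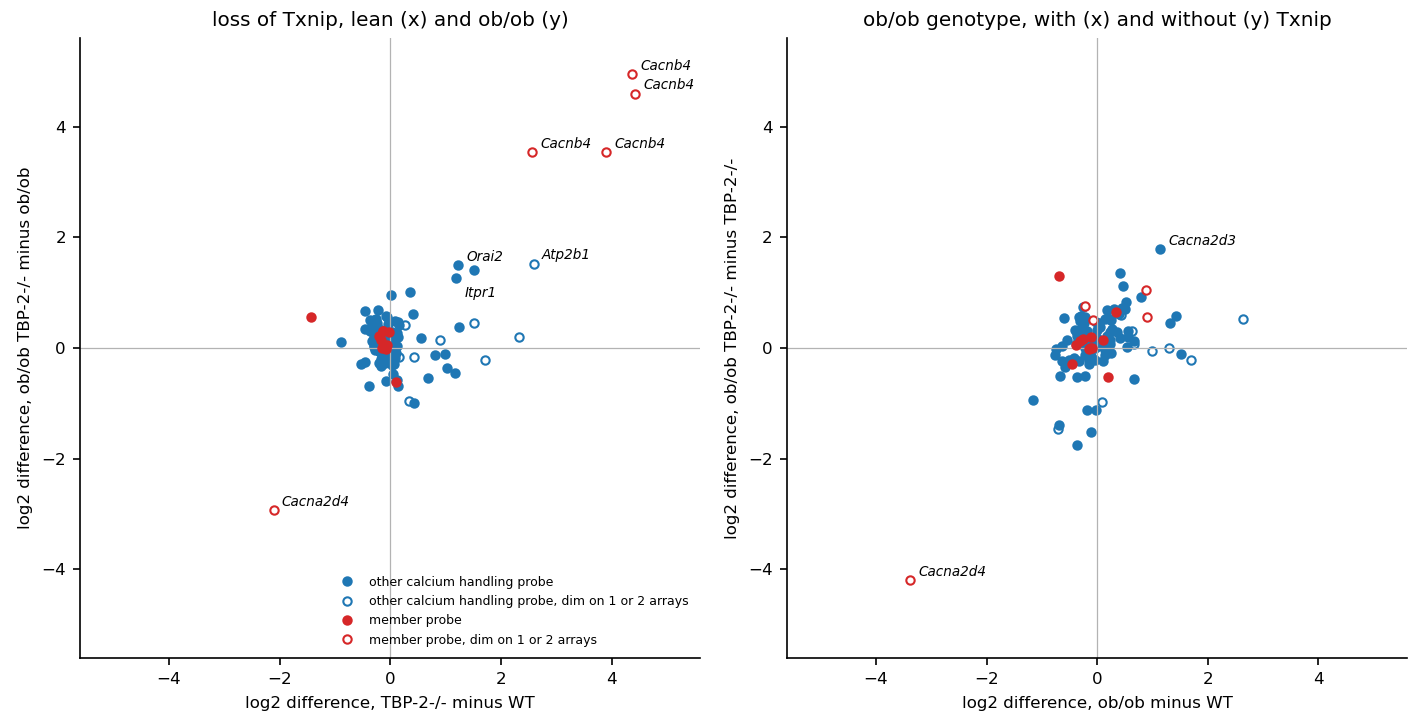
Each calcium handling probe by its log2 difference in the paired comparisons that share no array: loss of Txnip in lean (x) and ob/ob (y) muscle on the left, and the ob/ob genotype with (x) and without (y) Txnip on the right. Red points are members, blue points the other listed genes and open points are dim on 1 or 2 arrays; Cacnb4, Itpr1, Orai2 and 1 Atp2b1 probe lie to the upper right on the left, and Cacna2d3 on the right.

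With the ob/ob genotype, Cacna2d3, a further α2δ isoform, was higher whether or not Txnip was present. It read 118 on the ob/ob TBP-2-/- array, 108 on the ob/ob array, 39.9 on the TBP-2-/- array and 44.3 on the WT array. Both ob/ob arrays lay above both lean ones, by 3.46-fold in ob/ob TBP-2-/- minus TBP-2-/- and 2.20-fold in ob/ob minus WT. Cacnb3, another β isoform, and Cacna1g, a T-type channel pore, were low on the WT array alone. Cacnb3 read 77.4 on the ob/ob TBP-2-/- array, 126 on the ob/ob array, 98.1 on the TBP-2-/- array and 39.9 on the WT array. Cacna1g read 76.4, 69.4, 65.1 and 25.2 in the same order. Tmem38b, a potassium channel of the reticulum membrane, differed by 1.43 on the log2 scale in ob/ob minus WT and by 0.59 in ob/ob TBP-2-/- minus TBP-2-/-. One of 3 probes of Cacna1e, the pore of R-type channels, was well above background on the ob/ob TBP-2-/- array alone, at 45.6, at least 4.98-fold higher than in ob/ob and at least 5.71-fold higher than in TBP-2-/-. The other 2 Cacna1e probes were not well above background on any array, and the gene was singled out after its values were seen.

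Other list genes past 2-fold had probes that differed among themselves or stood on 1 array. Rcan1, which binds and restrains calcineurin, read 1394 on the ob/ob TBP-2-/- array, 2112 on the ob/ob array, 5536 on the TBP-2-/- array and 2478 on the WT array. It was highest in TBP-2-/-, 2.04-fold above WT, and ob/ob TBP-2-/- was 3.38-fold below TBP-2-/-. One of 3 measured Ryr3 probes, for the minor ryanodine receptor of muscle, was 2.17-fold higher in ob/ob TBP-2-/- than in TBP-2-/- and another differed by 0.05 on the log2 scale. Sypl2, or mitsugumin 29, had one probe at 1.36 and another at -0.23 in that comparison. Mcu, the mitochondrial uniporter, had one at -1.12 and another at -0.09. One probe of Cacng2, a γ subunit known from brain, was 2.76-fold lower in ob/ob TBP-2-/- than in TBP-2-/-. It read 9.46 on the ob/ob TBP-2-/- array, where the lowest signal well above background was 9.15, and 30.6 on the TBP-2-/- array. On the ob/ob array it was not well above background, and the other Cacng2 probes were so on no array.

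The slow pump Atp2a2 was low where slow fibre markers were low. Its brightest probe read 4625 on the ob/ob TBP-2-/- array, 8183 on the ob/ob array, 14281 on the TBP-2-/- array and 12006 on the WT array. Both ob/ob arrays were below both lean ones, with log2 differences of -1.40 in ob/ob TBP-2-/- minus TBP-2-/- and -0.69 in ob/ob minus WT. The other 2 measured probes gave -1.52 and -0.94 in the first comparison, and -0.10 and -1.15 in the second. With spike-in scaling the brightest probe stood at -1.53 in the first comparison but at -0.03 in ob/ob minus WT. There the other 2 gave 0.56 and -0.49, so the ob/ob minus WT difference of Atp2a2 rests on the scaling. All 8 slow fibre markers were measured on every array, with summed scaled signals of 1390, 1609, 2286 and 2530 for ob/ob TBP-2-/-, ob/ob, TBP-2-/- and WT. By each gene's brightest probe, 7 of 8 were 2-fold lower in ob/ob TBP-2-/- than in TBP-2-/-, and 2 of 8 in ob/ob than in WT. Of all probes, 1.5% and 1.64% were 2-fold lower in these comparisons. The fibre markers were chosen with earlier results of these data known. For Tnni1, slow troponin I, the brighter probe read 4152 on the ob/ob TBP-2-/- array, 6798 on the ob/ob array, 15430 on the TBP-2-/- array and 11946 on the WT array. The 8 fast fibre markers summed to 12310, 10816, 10850 and 12063 in that order of genotypes. By each gene's brightest probe, 0 of them were past 2-fold in any comparison. Over all 14 of their probes, 1 was, a Myh2 probe at -1.05 in ob/ob TBP-2-/- minus TBP-2-/-. The part of fibre type make-up in the Atp2a2 and Casq2 levels was not tested.

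**Figure D5:**
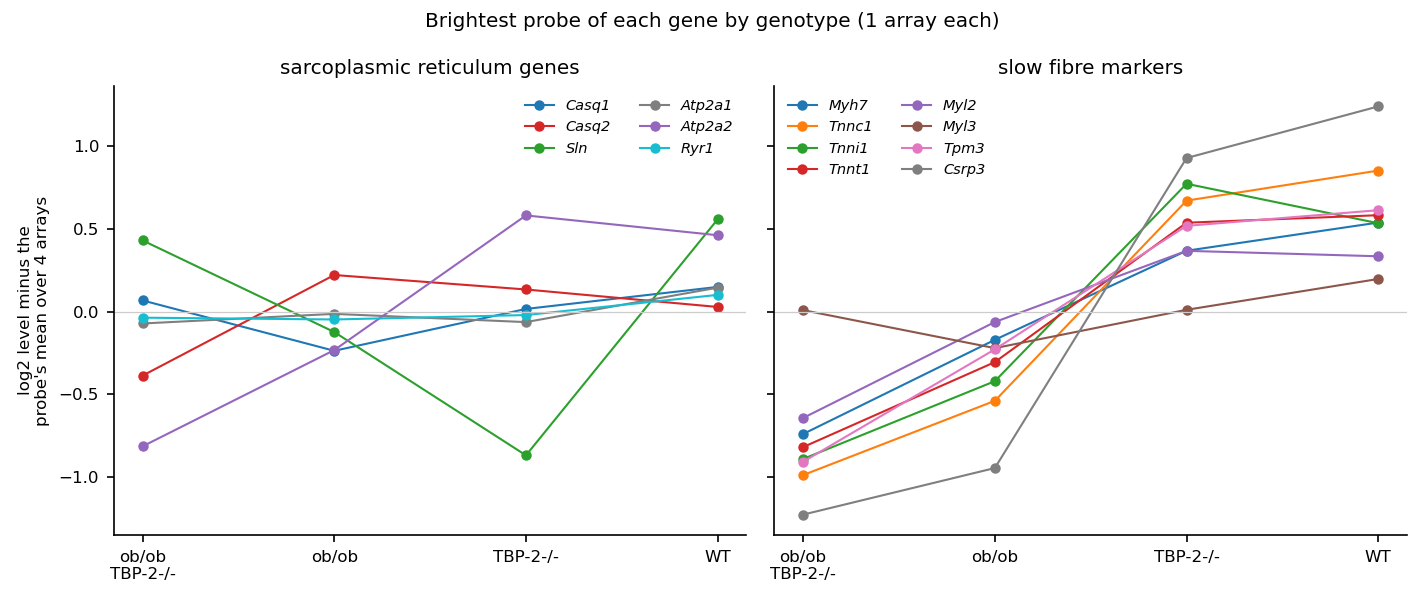
Brightest probe of 6 sarcoplasmic reticulum genes (left) and 8 slow fibre markers (right) on the 4 arrays, as log2 level minus the probe's mean (y axis), 1 array per genotype (x axis). Atp2a2 follows 7 of the markers down to the ob/ob TBP-2-/- array, Casq2 is low on that array only, and Ryr1 and Atp2a1 stay near 0.

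The WT array stood apart for tendon genes, and it enters both comparisons with WT. All 6 tendon markers were measured, with summed scaled signals of 52.6 on the ob/ob TBP-2-/- array, 37.9 on the ob/ob array, 31.5 on the TBP-2-/- array and 6.01 on the WT array. The Schwann cell sum was lowest there too. Its part in the comparisons with WT was not tested.

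The only test that 1 array per genotype leaves was an additive fit of the 2 genotypes over all 4 arrays with limma, which has 1 residual degree of freedom. The SE of this fit comes from how far the 2 genotype effects fail to add up, pooled with the spread of the other probes. Variation from mouse to mouse cannot be told apart in it. The fit was run on probes well above background on at least 2 arrays. The fit called 17 of 23702 probes for loss of Txnip, or 0.0717%, and 24 for the ob/ob genotype, or 0.101%. Of the members other than Cacnb4 and Cacna2d4, 12 probes were tested and 0 passed for either term, with smallest adjusted p-values from limma of 0.831 and 0.359. At an unadjusted p under 0.05 there were 0 and 1, the single probe being Cacng1 with a fitted ob/ob effect of 0.50 ± 0.18 (SE). Of 105 probes of the other calcium genes, 0 passed for either term. At an unadjusted p under 0.05 there were 9 for loss of Txnip, or 8.57% beside 8.86% of all probes, and 21 for the ob/ob genotype, or 20.0% beside 13.2%. The Itpr1 probes had fitted effects of loss of Txnip of 1.22 ± 0.16 and 1.46 ± 0.16, with limma adjusted p-values of 0.223 and 0.171. For Orai2 the effect was 1.36 ± 0.17, with an adjusted p from limma of 0.217. A p-value that misses the threshold with so few arrays does not show that the levels were alike. The members and the list of calcium genes were chosen with earlier results of these data known, so nothing is read from their counts and shares.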

How the data were processed

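Per the file headers, spot intensity values came from Agilent Feature Extraction 9.5.3.1, background-subtracted and detrended within each array and not scaled between arrays. The authors also deposited a log2 value table of the same arrays, which correlated with the centred scanner values at 0.99997 or more and had column medians of 0.01, -0.01, -0.06 and 0.09 for ob/ob TBP-2-/-, ob/ob, TBP-2-/- and WT; it keeps differences, not levels, and how low values were treated there is not stated in the sources used here.

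Spots marked as outliers were left out, replicate spots averaged, and log2 of the signal set to the 75th percentile of each array. The array annotation gives probe positions on mm8. A pair was compared where both arrays were well above background and called at 2-fold. Probes printed 10 times had a median SD of 0.06 to 0.07 on the log2 scale. The additive fit used limma 3.58.1 in R 4.3.3 on probes well above background on at least 2 arrays, with Benjamini-Hochberg adjustment. A run on simulated arrays with known additive effects checked only the code. The simulated spread was drawn from the fit itself, so that run does not show how well the fit suits these arrays. Errors of a difference come from the scanner software's error model. Precision is limited by the number of arrays. The members, the list of calcium genes and the markers were chosen with earlier results of these data known. Named were all members, 12 core partners and up to 4 list genes each way per comparison past 2-fold. The alternatives were quantile and spike-in scaling, normexp, other filters on dim probes and the authors' table. The 4 pairwise comparisons carry no p-value.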

Additional observations from a re-analysis of the deposited data

Results flagged for a closer look

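Sln differed in opposite directions in the comparisons of loss of Txnip: its bright probe was 1.43 lower on the log2 scale in TBP-2-/- than in WT (-1.43) and 0.55 higher in ob/ob TBP-2-/- than in ob/ob. The difference between these effects was 1.98 on the log2 scale. The same 1.98 separates the effects of the ob/ob genotype, 1.30 in ob/ob TBP-2-/- minus TBP-2-/- and -0.68 in ob/ob minus WT. With 1 array per genotype the difference was not tested. The single effects of 0.55 and -0.68 became -0.00 and -0.01 with spike-in scaling.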

How the results depend on the processing

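No paired analysis was possible because each genotype has 1 array. Taking first the comparisons of loss of Txnip (lean, then ob/ob) and then those of the ob/ob genotype (with, then without Txnip), 518, 577, 752 and 717 probes differed 2-fold. Normexp gave 156, 197, 240 and 253 probes, and no filter on dim probes 3214, 3123, 3373 and 3636. Spike-in scaling gave 781, 1827 and 3607 in the first 3, and moved the median of all probes by 0.24, -0.56, 0.67 and -0.13. The higher share of the probes called became 84.6%, 5.25%, 97.6% and 35.2%, against 64.7%, 66.2%, 51.9% and 52.0%, and with it Cacna1s, Cacna2d1, Cacnb1 and Cacng1 changed sign in both comparisons of loss of Txnip, and the first 3 of these genes also in ob/ob minus WT.

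The additive fit called 17 probes for loss of Txnip and 24 for ob/ob. Quantile normalization gave 0 and 0, spike-in scaling 126 and 249, normexp 598 and 1089, and probes well above background on all arrays 27 and 97, while no filter gave 0 for ob/ob. Of the calcium genes without Cacnb4 and Cacna2d4, normexp called 3 and 11 and spike-in scaling 1 and 2. Orai2 and both Itpr1 probes passed with normexp (limma adjusted p = 0.0385, 8.63e-10 and 1.88e-14), with a range over the other alternatives of 0.0599 to 0.9996. The cause was not tested. The Cacnb4 differences with loss of Txnip stayed positive and those of Cacna2d4 negative under all alternatives that gave them. Both genes were chosen for their differences on these same arrays, so the unchanged signs are no support for them. Cacna2d4 and the fainter Cacnb4 probe are limited by signals near background.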
